A study of Mus musculus with 27 samples.

Results

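The protein-coding genes whose symbol starts with Nduf, most of which encode subunits and assembly factors of mitochondrial complex I, were followed through muscle repair after volumetric muscle loss (VML). The symbol and the biotype in the deposited table picked out 46 of its 54532 genes, with no measured value used. Of these, 38 were subunit genes (14 Ndufa, 1 Ndufab, 10 Ndufb, 2 Ndufc, 8 Ndufs and 3 Ndufv) and 8 were assembly factors (Ndufaf1 to Ndufaf8). Ndufa4, since placed in complex IV, and its paralog Ndufa4l2 are counted among the 38 but not among the core or accessory subunits below. All 46 passed the filter on low values, and so stood among the 14630 genes that were tested. A further 5 Nduf symbols were outside the rule, namely 4 processed pseudogenes and the non-coding entry Ndufb1-ps.

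RNA was measured in tibialis anterior muscles of C57BL/6 male mice, with an age of 8 weeks given for all groups. In the injured groups 40% of the muscle had been excised at that age. There were 5 muscles without injury, and 5, 6, 6 and 5 muscles taken on days 3, 7, 14 and 21 after the excision. The public record calls the excision unilateral and the methods of the study call it bilateral, which was not settled here. The labels do not tie the samples to separate animals either, so p-values here measure the spread between these samples. Polyadenylated RNA was sequenced without strand information and deposited as FPKM, in which fragments are divided by gene length and by a count of mapped reads.

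Complex I takes electrons from NADH, passes them to ubiquinone and pumps protons across the inner mitochondrial membrane. Its peripheral arm lies in the matrix and carries the flavin and the iron-sulfur clusters, and its membrane arm carries the proton channels, whose core is encoded by mitochondrial DNA. Around the core subunits sit accessory subunits, and assembly factors build the enzyme without staying in it. Mature muscle fibres are rich in the complex, since they depend on the respiratory chain for endurance work.

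Promoter sequences of the family are shown first for 4 genes that stand at different places in the results. Ndufs7, a core subunit that holds an iron-sulfur cluster, and Ndufa11, an accessory subunit of the membrane arm, were among the 5 genes with the largest falls at day 3. The assembly factor Ndufaf4 was still called lower at day 14, and the assembly factor Ndufaf8 was not called at day 3. Each window is 300 bases of RefSeq sequence on GRCm38.p6, read 5′ to 3′ on the strand of the gene, from 250 bases before the start site to 50 after it. Capitals mark the letters GCGCA directly followed by their reverse complement TGCGC, which nuclear respiratory factor 1 (NRF1) binds, and the letters AAGATGGC, which Yin Yang 1 (YY1) binds and which also hold an ATG.
Ndufs7, chr10:80249199-80249498, strand +: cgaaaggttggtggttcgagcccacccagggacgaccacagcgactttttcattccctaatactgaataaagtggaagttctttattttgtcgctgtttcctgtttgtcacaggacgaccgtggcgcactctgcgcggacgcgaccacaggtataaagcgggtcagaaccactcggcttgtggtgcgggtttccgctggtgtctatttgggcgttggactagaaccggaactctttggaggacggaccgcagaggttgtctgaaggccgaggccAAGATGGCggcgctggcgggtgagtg
Ndufa11, chr17:56717512-56717811, strand +: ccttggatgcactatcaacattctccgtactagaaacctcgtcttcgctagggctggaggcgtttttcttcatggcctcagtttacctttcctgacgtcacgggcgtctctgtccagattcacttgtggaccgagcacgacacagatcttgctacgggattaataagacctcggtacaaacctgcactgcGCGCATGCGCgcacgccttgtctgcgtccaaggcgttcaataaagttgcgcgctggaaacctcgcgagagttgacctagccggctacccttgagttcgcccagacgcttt
Ndufaf4, chr4:24897833-24898132, strand +: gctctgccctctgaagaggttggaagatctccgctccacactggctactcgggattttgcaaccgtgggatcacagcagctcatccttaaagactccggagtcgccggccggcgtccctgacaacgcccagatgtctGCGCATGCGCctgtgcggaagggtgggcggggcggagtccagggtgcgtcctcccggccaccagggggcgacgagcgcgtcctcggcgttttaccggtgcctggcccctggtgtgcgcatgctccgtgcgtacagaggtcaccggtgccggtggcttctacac
Ndufaf8, chr11:120098684-120098983, strand +: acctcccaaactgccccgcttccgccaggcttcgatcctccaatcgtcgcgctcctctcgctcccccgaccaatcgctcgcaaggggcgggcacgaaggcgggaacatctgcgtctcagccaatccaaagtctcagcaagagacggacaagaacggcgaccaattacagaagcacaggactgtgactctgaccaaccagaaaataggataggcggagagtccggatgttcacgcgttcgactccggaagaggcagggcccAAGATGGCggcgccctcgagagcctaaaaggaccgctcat

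RefSeq windows were matched by symbol for 40 of the 46 genes, 33 subunits and 7 assembly factors, and Ndufa5 and Ndufa7 had 2 windows each, giving 42 windows. Genes with no entry included Ndufa2, Ndufa4l2, Ndufaf6, Ndufb9 and Ndufs1. AAGATGGC stood in 8 of the 42 windows (19%), against 2.75% of the 32851 windows of all genes. The 8 genes were Ndufa3, Ndufa9, Ndufb8, Ndufc1, Ndufs4, Ndufs6, Ndufs7 and Ndufaf8. In each of them the letters lay on the strand of the gene and began 11 to 39 bases into the transcript, whereas 30.6% of the 927 matches in all windows lay on that strand and after the start site. The NRF1 letters stood in the windows of Ndufa11, Ndufaf4 and Ndufaf5 (7.14% of windows, against 0.971% of all). CCGGAAG, bound by factors of the ETS family, stood in 14.3% of the Nduf windows against 8.86% of all, and AAGGTCA, bound by oestrogen-related receptors, in 7.14% against 4.72%. All searches covered both strands, and although CCGGAAG and AAGATGGC share end letters, no matches overlapped in the Nduf windows. The windows of the family held a median of 59.3% G and C, against 52.7% in all windows, and the part of base composition in these shares was not tested. At day 3 the 8 genes with AAGATGGC differed from no injury by -1.49 to -0.43 (median -1.15) in log2(FPKM + 1), and the 32 genes without it by -1.57 to -0.10 (median -1.13), so the ranges lay over each other.

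Without injury, subunit genes were high and assembly factors low. The level of the 38 subunits ran from 9.36 FPKM for Ndufb2, a small membrane-arm subunit, to 800.4 FPKM for Ndufa4, with a median of 273.4. The level of the 8 assembly factors ran from 5.39 FPKM for Ndufaf2 to 49.3 FPKM for Ndufaf8, with a median of 22.8. Ndufaf2 and Ndufaf7 (7.21 FPKM) were the 2 lowest genes of the family. Ndufa4 (800.4 ± 121.5 FPKM, SD, n = 5) was followed by Ndufa2 (688.1 ± 261.8), Ndufa5 (620.9 ± 223.6), Ndufb9 (611.8 ± 157.7) and Ndufb11 (595.8 ± 116.7), and neighbours in this order differed by less than their SD. The 3 subunits at the low end, Ndufb2, Ndufa4l2 (27.9 FPKM) and Ndufab1 (45.0 FPKM), lay in the range of the assembly factors. FPKM divides by the deposited gene length, which is 6883 bases for Ndufab1 and 5628 for Ndufb2, so this order also depends on annotation. Ndufab1 had 2196 to 5352 reads per sample, more than any assembly factor (at most 1202, Ndufaf1), while Ndufb2 had 247 to 1141. Ndufaf2 also had the fewest reads, 137 to 472 per sample.

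Some libraries stood apart from their groups. The sum of 7 macrophage and leukocyte markers was 16.2 to 24.8 FPKM without injury and 994.8 to 2144 FPKM in 4 muscles of day 3, but 312.8 FPKM in replicate 5 of day 3. At day 7 it was 45.7 to 410.6 FPKM in 5 muscles and 2007 FPKM in replicate 5. The sum in replicate 5 of day 3 lay in the range of the other muscles of day 7, and that in replicate 5 of day 7 in the range of the other muscles of day 3. Results at these days are also given without both. The reads recovered from FPKM and gene length totalled 14376395 to 24436763 per sample. The deposited FPKM were scaled to 0.747 to 1.48 times these totals (0.782 times on average without injury, 1.25 at day 3), so that a scaling between samples is built into the levels. The 10 fast-fibre markers, which define this muscle, were above 0 in every sample.

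Nduf transcripts were lower at day 3 throughout the subunits. Of 38 subunit genes, 37 were called lower than without injury by limma (Benjamini-Hochberg adjusted p under 0.05), against 19.8% of all genes tested, and 0 were called higher. Of the 8 assembly factors, 6 were called lower. The median log2 difference was -1.19 for the subunits and -0.66 for the assembly factors, and 0.01 for all genes. In 32 of the subunits and 6 of the assembly factors all muscles of day 3 lay below all muscles without injury, which held for 16.5% of all genes. The 3 members not called were the subunit gene Ndufa4l2 and the assembly factors Ndufaf2 and Ndufaf8. Without replicate 5 of both days, 37 subunits and 6 assembly factors were called lower, beside 19.7% of all genes.

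**Figure D1:**
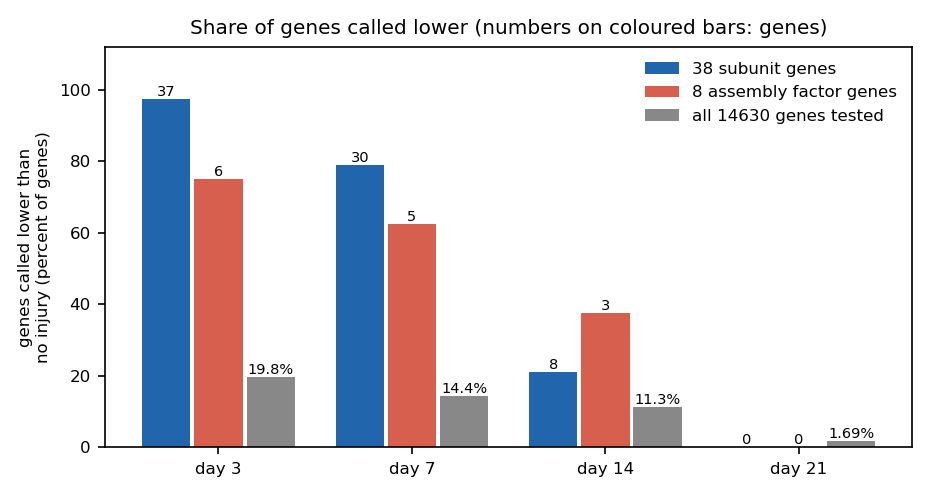
Bars give the percent of genes called lower than without injury (y axis) at each time point (x axis) for 38 subunit genes, 8 assembly factor genes and all 14630 genes tested. The subunits went from 37 called at day 3 to 30, 8 and 0, and the share of all genes from 19.8% to 1.69%. With FPKM scaled to a common sum per sample, the day 3 counts were 9 subunits and 0 assembly factors, beside 2.13% of all genes.

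These counts depended on how samples were scaled to each other. With each sample's own total of reads in place of the deposited scaling, 20 subunits and 1 assembly factor were called lower at day 3, and with FPKM scaled to a common sum 9 and 0. The share of all genes called lower was then 4.14% and 2.13%, in place of 19.8%. Under these scalings the median of all genes itself rose at day 3, by 0.40 and 0.50 log2, and the median of the assembly factors was -0.07 and 0.07, the second of the opposite sign. Relative to the median of all genes, the subunits were lower by -1.20 log2 with the deposited scaling, -0.80 with quantile normalization, -0.93 with own totals and -0.87 with a common sum. The assembly factors stood at -0.67, -0.55, -0.47 and -0.42 relative to the same medians. Both classes lay below the median gene at day 3 under the 4 scalings, while the size and the number of calls changed. Own totals and a common sum multiply all genes of a sample by the same factor. Beyond the pseudocount and the filter they could not change this place, which quantile normalization could.

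**Figure D2:**
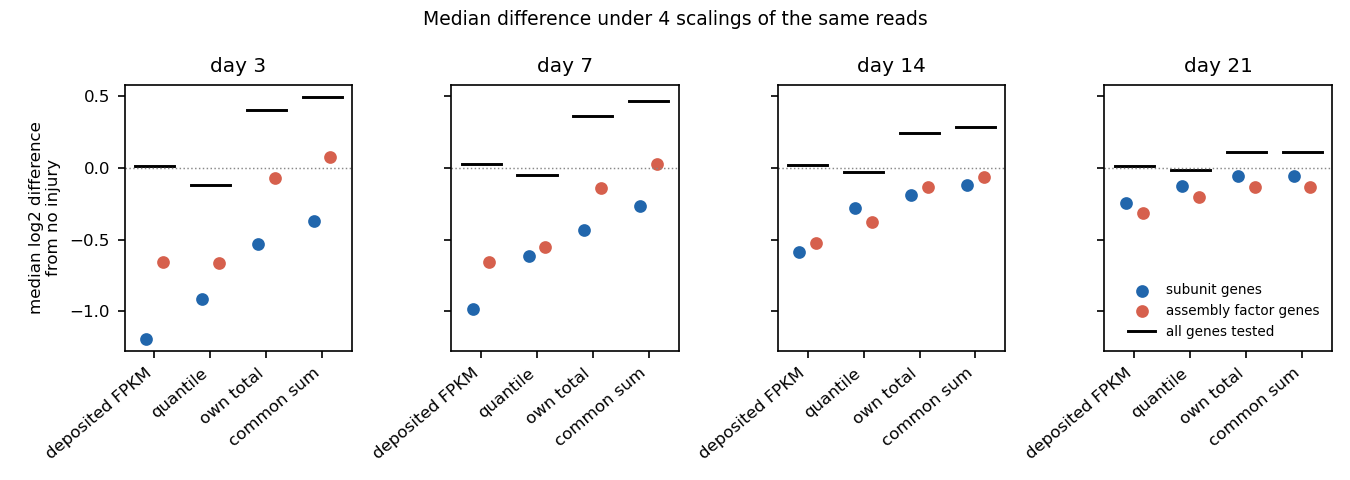
Each panel is a time point and each x position a scaling of the same reads, with the median log2 difference from no injury on the y axis for subunits (blue), assembly factors (orange) and all tested genes (black line). Both classes lie below the black line in every panel, but the assembly factors are above 0 at days 3 and 7 with a common sum (0.07 and 0.03). Own totals and a common sum multiply all genes of a sample by the same factor. Beyond the pseudocount and the filter, they could not change the place below the line. The distance from the line did change. At day 3 it was -1.20 for the subunits with the deposited scaling, -0.93 with own totals and -0.87 with a common sum. For the assembly factors it was -0.67, -0.47 and -0.42.

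Among the core subunits, which carry the electron path and are conserved from bacteria, all 7 fell at day 3, by a median of -1.33 log2, and their ranges did not overlap with those without injury. Ndufs1, the largest subunit of the peripheral arm and a carrier of iron-sulfur clusters, was at 56.019, 46.9, 47.3, 51.4 and 49.1 FPKM without injury (replicates 1 to 5). At day 3 it was at 25.3, 23.7, 15.9, 11.1 and 25.044 FPKM, all below the lowest uninjured muscle. The log2 difference was -1.33 ± 0.23 (SE, adjusted p = 8.53e-05, limma). Ndufs7, whose cluster hands electrons to ubiquinone, fell from 507.0 ± 98.8 to 189.5 ± 71.2 FPKM (SD, n = 5 each; log2 difference -1.49 ± 0.32). Ndufs8, another iron-sulfur subunit, fell by 1.33 on the log2 scale, and Ndufs3, a core subunit of the peripheral arm, by 1.20. Ndufv1, which binds NADH and the flavin, fell by 1.19, and Ndufv2, its iron-sulfur partner, by 1.33.

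The 29 accessory subunits were all called lower at day 3 too, with a median of -1.14 log2. The 16 genes of the peripheral arm had a median of -1.21 and the 19 of the membrane arm -1.13, and the difference between the arms was not tested. The largest fall was that of Ndufa12, an accessory subunit of the peripheral arm (chr10:94198720-94221443, plus strand, GRCm38). It was at 270.3, 214.5, 306.1, 158.3 and 225.4 FPKM without injury and at 97.3, 109.0, 53.4, 33.4 and 137.8 FPKM at day 3. The 2 groups did not overlap, and the difference was -1.57 ± 0.45 log2 (adjusted p = 0.00688). Ndufb9 of the membrane arm differed by -1.49, Ndufa11 by -1.35 and Ndufa5, of the peripheral arm, by -1.33. Of the exon bases of Ndufb9, 19.5% are shared with another gene, whose reads an unstranded library cannot separate. Ndufab1, an acyl carrier protein that also serves fatty acid synthesis in mitochondria, differed by -0.99. At the other end stood Ndufb7 with -0.87, the smallest of the called subunits (named after its value was seen).

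**Figure D3:**
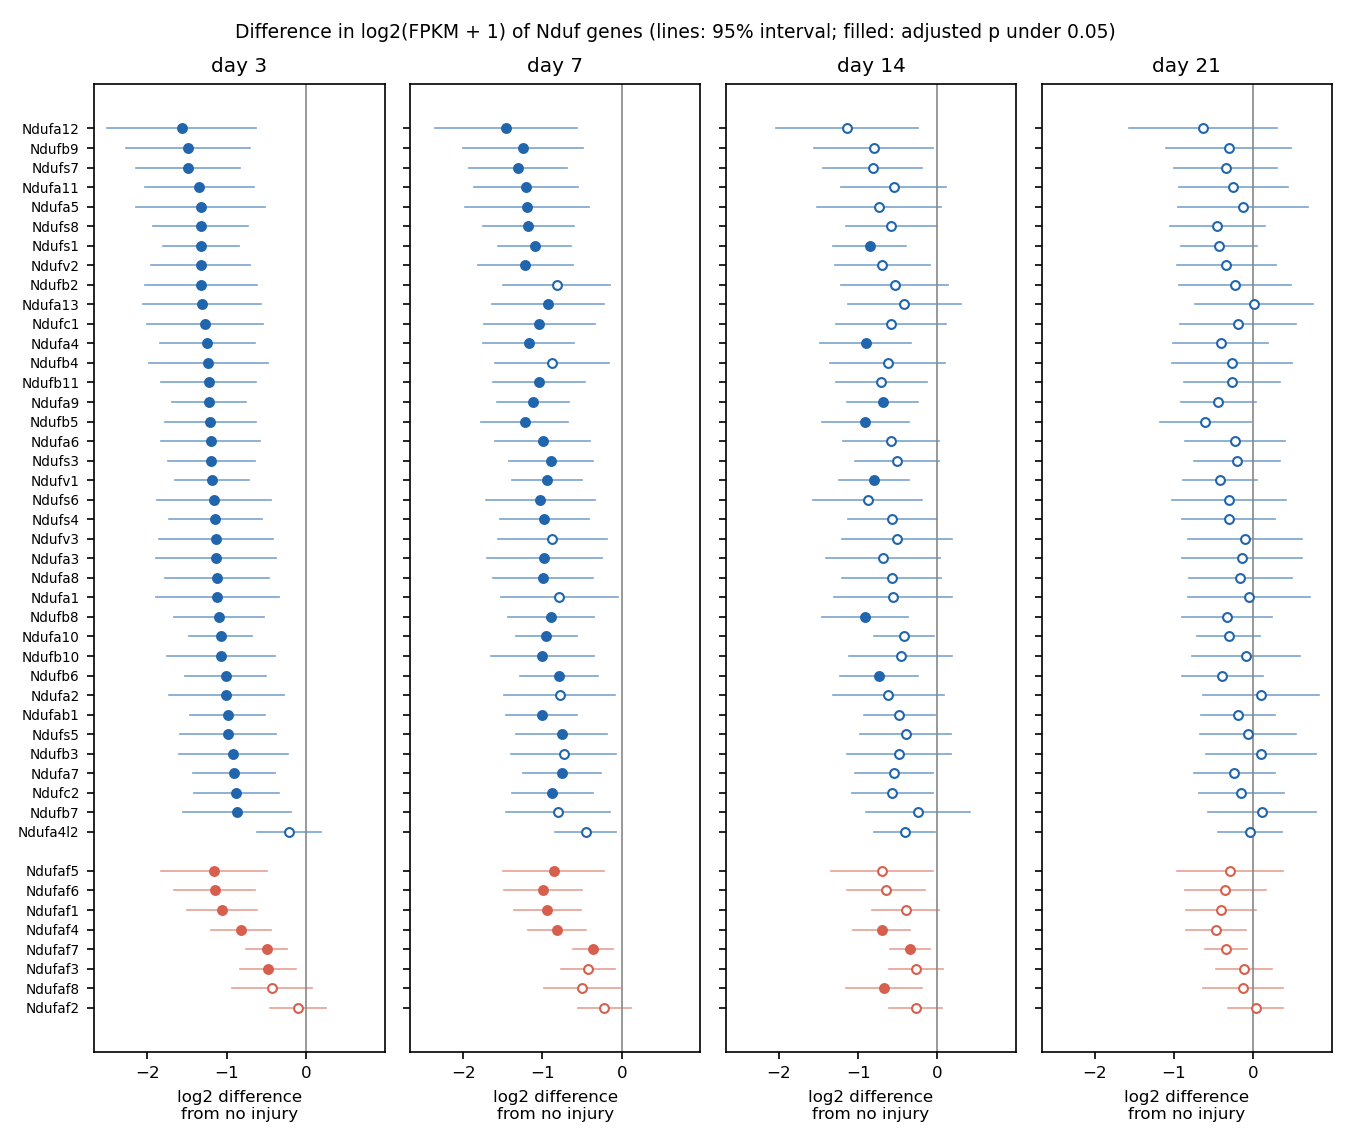
Each row is an Nduf gene, ordered within its class by its day 3 difference (1 gene is not shown), with subunits in blue and assembly factors in orange, and each panel a time point. The x axis is the log2 difference from no injury with its 95% interval, and filled points are genes called lower. At day 3 every subunit shown but Ndufa4l2 is filled, and at day 21 no gene is. The differences use the deposited scaling. With a common sum Ndufa4l2 and Ndufaf2 were called higher at day 3 (0.58 and 0.59), as were 46.9% of all genes.

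The day 3 differences of the 8 assembly factors ran from -1.16 for Ndufaf5 to -0.10 for Ndufaf2 with the deposited scaling. Ndufaf5, which hydroxylates Ndufs7, was at 33.7, 28.3, 29.5, 26.6 and 30.2 FPKM without injury and at 15.1, 15.5, 10.3, 7.61 and 17.6 FPKM at day 3. The groups did not overlap (log2 difference -1.16 ± 0.33, adjusted p = 0.00542). Ndufaf6, which acts early in the assembly of the peripheral arm, differed by -1.15 and Ndufaf1, a factor for the first membrane-arm modules, by -1.06. Ndufaf4, which works with Ndufaf3 on the quinone module, differed by -0.82. Ndufaf7, a protein arginine methyltransferase, differed by -0.50, and Ndufaf3 by -0.48 with an adjusted p of 0.0262. The call of Ndufaf3 was lost without uninjured replicate 1 (adjusted p = 0.101), day 3 replicate 1 (0.0506) or day 3 replicate 4 (0.0888). With own totals or a common sum the differences of Ndufaf3, Ndufaf7 and Ndufaf8 at day 3 turned positive, and none of these 3 genes was called.

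Ndufaf2 and Ndufaf8 were the assembly factors with no call at day 3. Ndufaf2, a paralog of Ndufa12 that holds its place during assembly, was at 6.18, 6.03, 6.15, 4.69 and 3.92 FPKM without injury and at 5.62, 4.19, 5.12, 4.73 and 4.92 FPKM at day 3. The groups lay over each other, and the difference was -0.10 ± 0.17 log2 (95% interval -0.45 to 0.25). So the assembly factor differed by -0.10 in the same muscles in which its paralog in the finished enzyme, Ndufa12, differed by -1.57, and the difference between the 2 genes was not tested. With own totals Ndufaf2 was called higher at day 3 (0.46, adjusted p = 0.0335), as it was with a common sum (0.59, adjusted p = 0.0211), while 44.9% and 46.9% of all genes were called higher under these scalings. Of the exon bases of Ndufaf2 (chr13:108002715-108158623, minus strand), 65.6% are shared with the gene B230220B15Rik, so its reads may come from either. Ndufaf8, a partner of Ndufaf5, was at 31.9 to 63.9 FPKM without injury and 32.1 to 39.3 FPKM at day 3 (log2 difference -0.43 ± 0.25, adjusted p = 0.165).

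On a per-sample scale, the mean log2(FPKM + 1) over the 38 subunits lay 0.63 to 1.85 below the mean without injury in the 5 muscles of day 3, where the uninjured muscles themselves spread from -0.23 to 0.34. The same mean over the 8 assembly factors lay 0.51 to 1.003 below, against -0.15 to 0.25 without injury. The difference between these 2 means was -0.84 to -0.13 in the muscles of day 3 and -0.22 to 0.25 in those without injury, and replicate 5 of day 3 (-0.13) lay inside the uninjured range. Replicate 4 of day 3 was lowest in both classes and replicate 5 highest. A pseudocount of 1 compresses changes of low genes, and with 0.1 the medians were -1.20 for the subunits and -0.73 for the assembly factors. Whether the 2 classes differ was not tested, because the genes of a class share samples and were chosen by name.

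**Figure D4:**
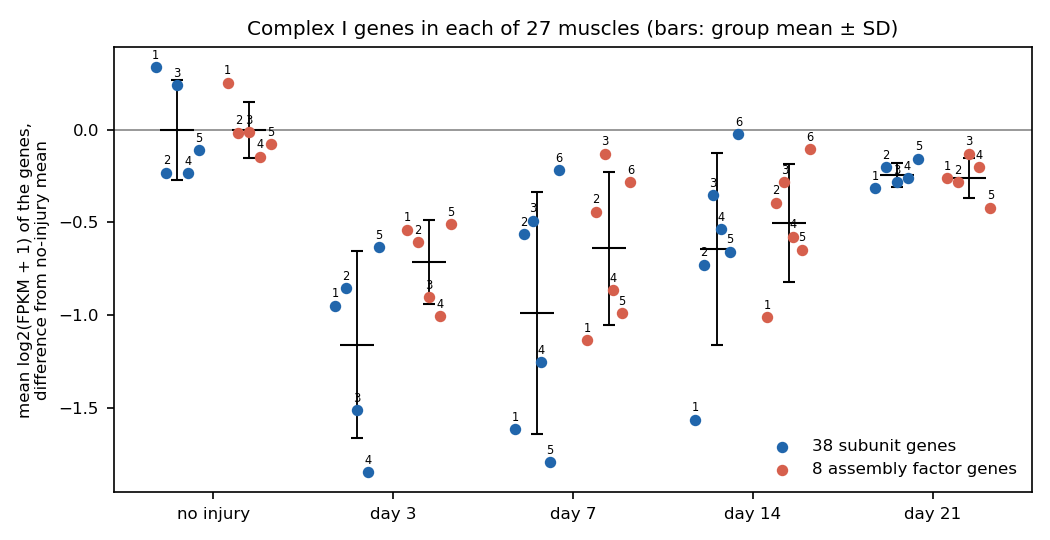
The y axis gives the mean log2(FPKM + 1) of 38 subunit genes (blue) or 8 assembly factor genes (orange) in each muscle minus the mean without injury, with replicate numbers beside the points and group mean ± SD as bars. Subunits reach -1.85 at day 3 and spread widely at days 7 and 14 (-1.79 to -0.22 and -1.56 to -0.03), and at day 21 all 5 muscles lie between -0.31 and -0.16. The levels use the deposited scaling, and with a common sum the median of the assembly factors turns to 0.07 at day 3.

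Ndufa4 and its paralog Ndufa4l2 were compared within each muscle. Ndufa4, first described as a complex I subunit and since placed in complex IV, has its gene on chr6:11900292-11907497 (minus strand), and Ndufa4l2, known for its induction by hypoxia, on chr10:127514967-127517154 (plus strand). Ndufa4 was at 936.7, 671.7, 923.3, 746.2 and 724.0 FPKM without injury and at 445.8, 444.0, 269.0, 193.1 and 405.8 FPKM at day 3. Ndufa4l2 was at 36.1, 21.9, 22.1, 28.4 and 31.1 FPKM without injury and at 17.1, 21.998, 24.021, 24.1 and 32.8 FPKM at day 3. Ndufa4 thus fell without overlap (log2 difference -1.24 ± 0.29, adjusted p = 0.00123), and the groups of Ndufa4l2 lay over each other (-0.21 ± 0.20, adjusted p = 0.404). With own totals Ndufa4l2 was called higher at day 3 (0.43, adjusted p = 0.0487), as it was with a common sum (0.58, adjusted p = 0.0189). Under these scalings 44.9% and 46.9% of all genes were called higher, and the median of all genes rose by 0.40 and 0.50 log2. The log2 difference between the paralogs within a muscle moved towards Ndufa4l2 by 1.03 at day 3 (exact permutation test, two-sided, p = 0.0159, adjusted over 4 time points 0.0346). The shift was 0.72 at day 7 (exact permutation p = 0.0173, adjusted 0.0346). It was 0.49 in the muscles of day 14 (exact permutation p = 0.0563, adjusted 0.0563). In those of day 21 it was 0.37 (exact permutation p = 0.0397, adjusted 0.0529).

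The smallest p that this exact test could give was 0.00794 for 5 muscles against 5 and 0.00433 for 6 against 5. In 4 of 5 muscles at day 3 and 5 of 6 at day 7 the difference between the paralogs was above all uninjured muscles. Without replicate 5 of both days the shift was 0.98 at day 3 and 0.62 at day 7, each with an adjusted p of 0.0529, so the calls were lost. They were also lost on leaving out single libraries, with shifts of 0.82 to 1.15 at day 3 and 0.59 to 0.78 at day 7. These libraries were uninjured replicates 1 to 4 and day 3 replicates 2 to 5 for day 3, and uninjured replicates 1 to 4 and day 7 replicates 1, 2, 4, 5 and 6 for day 7. The shift of 1.03 concerns a ratio within a muscle and so does not depend on how muscles are scaled to each other beyond the pseudocount.

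**Figure D5:**
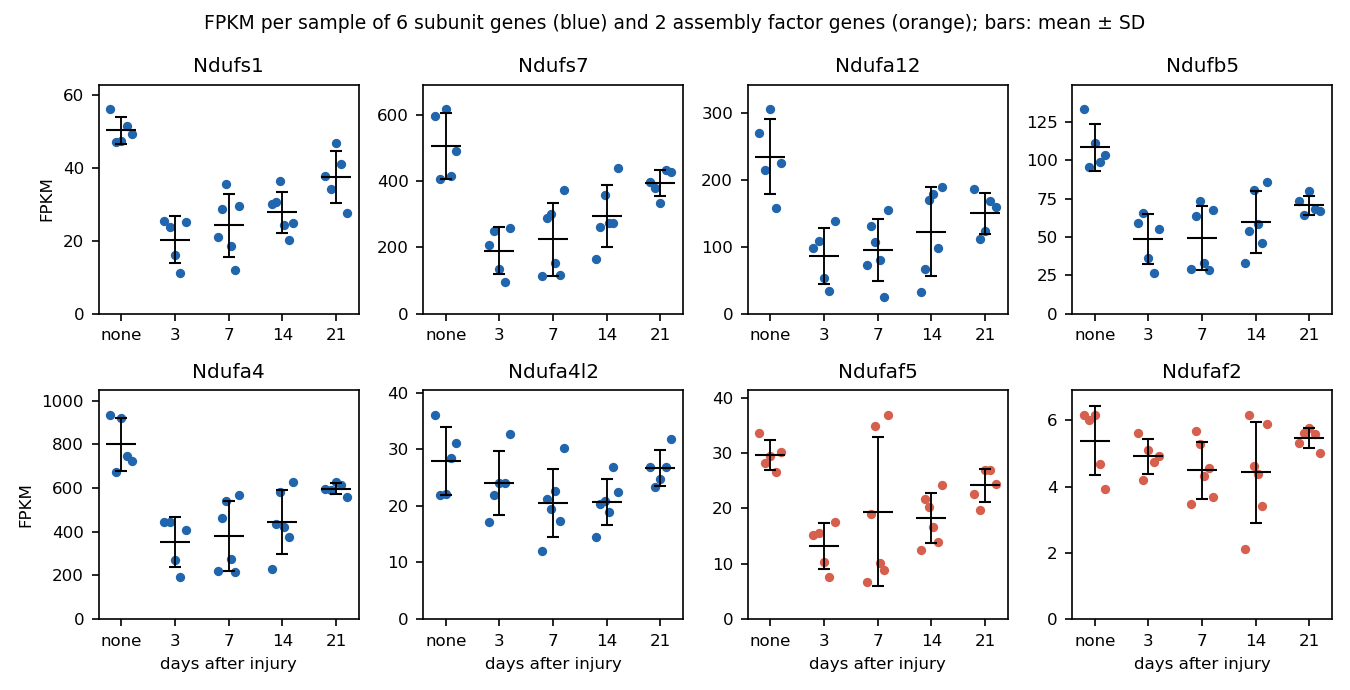
Points are FPKM in each muscle (y axis, from 0) by group (x axis, days after injury) for 6 subunit genes (blue) and 2 assembly factors (orange), with mean ± SD as bars. Ndufs1, Ndufs7, Ndufa12 and Ndufa4 do not overlap between no injury and day 3, while Ndufa4l2 and Ndufaf2 do; the common sum turns the sign of these 2 at day 3.

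At day 7 the decrease was less uniform. Of the subunits, 30 were called lower (14.4% of all genes were) and of the assembly factors 5, with medians of -0.98 and -0.66 log2, the second of which turned to 0.03 with a common sum. With the deposited scaling all 38 subunits had a negative difference, and 16 subunits and 2 assembly factors (Ndufaf1 and Ndufaf4) had all 6 muscles below all uninjured ones, against 5.37% of all genes. The 8 subunits not called were Ndufa1, Ndufa2, Ndufa4l2, Ndufb2, Ndufb3, Ndufb4, Ndufb7 and Ndufv3, all of them outside the core (named after their values were seen). Ndufa4l2 was called without day 7 replicate 6 (adjusted p = 0.0182). The core subunits were all called again and did not overlap, with a median of -1.15. With own totals 15 subunits and 2 assembly factors were called lower at day 7, beside 2.85% of all genes, and with a common sum 8 and 0, beside 1.38%.

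The muscles of day 7 spread more than those of any other group. Their mean over the subunits lay 0.22 to 1.79 below no injury, with replicates 5, 1 and 4 low and replicate 6 high. Ndufs7 ran from 113.3 to 372.6 FPKM with a median of 220.9 (log2 difference -1.31 ± 0.30). Ndufa12 ran from 24.975 to 154.9 FPKM with a median of 93.0, below the lowest uninjured muscle (158.3 FPKM). Ndufaf5 showed the spread most plainly, with 6.70, 19.021, 34.8, 10.2, 8.84 and 37.0 FPKM in the 6 replicates, of which 2 stood above all uninjured muscles. Its call at day 7 (-0.86 ± 0.31, adjusted p = 0.0397) was lost on leaving out any uninjured muscle or day 7 replicate 1, 4 or 5, with adjusted p from 0.0541 to 0.112. The number of assembly factors called fell to 3 without uninjured replicate 1, 2 or 5, day 7 replicate 1, 4 or 5, or replicate 5 of both days. For the fits that leave out a single library, the share of all genes called is not given here. Without replicate 5 of both days 23 subunits were called lower, beside 11.1% of all genes. Ndufa5 lost its call without uninjured replicate 1 or 3 or day 7 replicate 1 or 5 (adjusted p 0.0513 to 0.0624), and Ndufaf7 without the same libraries as the count of assembly factors (0.0553 to 0.0786).

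By day 14 most members were no longer called. Of the subunits, 8 were called lower, against 11.3% of all genes, and of the assembly factors 3. The median log2 differences were -0.59 and -0.52, and with the deposited scaling all 46 members were still negative. The 8 subunits included Ndufs1 and Ndufv1 of the core, the peripheral-arm subunit Ndufa9, the membrane-arm subunits Ndufb5, Ndufb6 and Ndufb8, and Ndufa4 (Ndufa9, Ndufb6 and Ndufb8 are named after their values were seen). The assembly factors were Ndufaf4 (-0.71), Ndufaf7 (-0.35) and Ndufaf8 (-0.68). Ndufs1 ran from 20.2 to 36.3 FPKM with a median of 27.4 FPKM, all below the lowest uninjured muscle (46.9 FPKM), with a log2 difference of -0.86 ± 0.22 (adjusted p = 0.00952). Ndufb5 ran from 33.1 to 85.7 FPKM with a median of 56.2 (-0.91 ± 0.27), also below all uninjured muscles. Of the exon bases of Ndufb6 39.0% are shared with Smim27, and of those of Ndufb5 12.3% with Mrpl47, so some of their reads may come from these genes. Of the 46 genes, 7 subunits and 2 assembly factors did not overlap, against 8.05% of all genes. Ndufa12 had the largest difference, -1.14 ± 0.44, but ran from 32.1 to 189.9 FPKM, overlapped with no injury and was not called (adjusted p = 0.0646). Its call was gained without day 7 replicate 5 (0.0326), day 14 replicate 3 (0.0444) or day 14 replicate 6 (0.0389).

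Single libraries moved the day 14 counts. The subunits called were 3 without uninjured replicate 1, 5 without day 14 replicate 1 or 5, and 13 without day 14 replicate 6. The mean over the subunits was 1.56 below no injury in replicate 1 and 0.03 below in replicate 6, and the other 4 lay between 0.35 and 0.73 below. The assembly factors called were 1 without uninjured replicate 1, 2 or 5 or day 14 replicate 1, 4 or 5. For these fits without a library the share of all genes called is not given here, so the counts cannot be read against it. With own totals 2 subunits and 0 assembly factors were called (1.91% of all genes), and with a common sum 0 and 0 (0.701%). The call of Ndufb5 was lost without uninjured replicate 1 (adjusted p = 0.0502), that of Ndufa4 without uninjured replicates 1 or 3 or day 14 replicates 1 or 5 (0.0515 to 0.0593). The call of Ndufaf8 was lost without uninjured replicate 1, 2, 3 or 5 or day 14 replicate 1, 4 or 5 (0.0656 to 0.115). That of Ndufaf7 was lost without uninjured replicate 1, 2, 4 or 5, day 14 replicate 1, 2, 4 or 5, day 3 replicate 3 or day 21 replicate 2 (0.0506 to 0.112). Ndufs1, Ndufv1 and Ndufaf4 kept their calls on leaving out each library in turn.

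At day 21 limma called 0 of the 46 members, against 1.69% of all genes called lower. At an unadjusted p under 0.05, 2 subunits and 2 assembly factors were lower and 0 members higher. At that threshold 2898 of the 14630 genes tested differed in either direction. The medians were -0.24 log2 for the subunits and -0.32 for the assembly factors, and with the deposited scaling 34 subunits and 7 assembly factors were still negative. In a fit of the uninjured and day 21 muscles alone, 3 subunits, among them Ndufa9 and Ndufb5, and the assembly factor Ndufaf4 were called lower. In that fit 4.92% of all genes were called lower. Limma-voom on the recovered reads called 0 members, beside 0.95% of all genes. With sample weights Ndufaf4 alone was called, beside 8.71% of all genes called lower. Among the largest differences were those of Ndufa12 (-0.64), Ndufb5 (-0.61), Ndufaf4 (-0.47) and Ndufs8 (-0.45). At the other end, Ndufb7, Ndufa2 and Ndufb3 had differences of 0.11, 0.10 and 0.10 with adjusted p of 0.89 to 0.91 (named after their values were seen).

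Although no member was called, 6 of them had all 5 muscles of day 21 below all uninjured ones, among them Ndufs1, Ndufa4, Ndufa9, Ndufb5 and Ndufaf4. This held for 5.13% of all genes. Ndufs1 was at 37.7, 34.017, 46.7, 40.8 and 27.6 FPKM, below the lowest uninjured value of 46.9 (95% interval of the log2 difference -0.91 to 0.05, adjusted p = 0.307). Ndufb5 was at 73.4, 64.1, 80.2, 68.6 and 67.1 FPKM, below 95.5 (-1.18 to -0.03, adjusted p = 0.226). Ndufaf4 was at 10.9, 11.9, 12.1, 12.6 and 11.7 FPKM, below 16.1 (-0.85 to -0.09, adjusted p = 0.155). Of these 3 genes, Ndufb5 and Ndufaf4 had an interval below 0, without passing the adjustment over all genes. The muscles of day 21 were alike, with a mean over the subunits between 0.31 and 0.16 below no injury.

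The return from day 3 to day 21 was tested directly. Of the subunits 32 were higher at day 21 than at day 3 (9.23% of all genes were), and of the assembly factors 2, Ndufaf1 and Ndufaf6. The median log2 rise was 0.96 for the subunits and 0.36 for the assembly factors. The subunits not called were Ndufa12, Ndufa4l2, Ndufb4, Ndufb5, Ndufb6 and Ndufs6 (named after their values were seen). Ndufs7 rose by 1.14 ± 0.32 (adjusted p = 0.00972) and Ndufs1 by 0.90 ± 0.23 (adjusted p = 0.00667), and neither overlapped between the 2 days. Ndufa12 differed by 0.93 ± 0.45 (adjusted p = 0.134) and Ndufb5 by 0.60 ± 0.28 (adjusted p = 0.116).

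The count of 32 depended on single libraries of both days. Without day 3 replicate 4 it was 6, without day 3 replicate 3 it was 9, and without day 21 replicate 2 or 5 it was 17 or 21. The assembly factors called were 0 without day 3 replicate 3 or 4, and 1 without day 21 replicate 3 or 4. Shares of all genes called in fits that leave out a library are not given here. Whether these drops are particular to the Nduf genes was not tested. With own totals 9 subunits and 0 assembly factors were called higher (2.08% of all genes), and with a common sum 4 and 0 (1.1%), and under both scalings the median of the assembly factors turned negative (-0.07 and -0.22). Between neighbouring time points limma called 0 members at each step, as did the alternative fits. At an unadjusted p under 0.05, 0 members were higher from day 3 to day 7, 4 subunits and 1 assembly factor from day 7 to day 14, and 2 and 1 from day 14 to day 21. At that threshold 2301, 1821 and 909 of the 14630 genes tested differed in either direction. The subunits differed by a median of 0.17 from day 3 to day 7, of 0.35 from day 7 to day 14 and of 0.39 from day 14 to day 21. Without replicate 5 of days 3 and 7 these medians were 0.46, 0.19 and 0.39, so the order of the first steps turned. Of all genes, 7 were called lower in the first step, 32 lower and 17 higher in the second, and 0 in the third. Without replicate 5 of days 3 and 7, 1663 genes were called lower and 510 higher in the first step, with 0 members among them.

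Other genes of oxidative phosphorylation, from lists set by function, were lower as well with the deposited scaling. The 7 complex I subunits of mitochondrial DNA were all called lower at day 3, with a median of -1.49 log2 (-1.59 for mt-Nd2 to -1.37 for mt-Nd6), and 6 of them at day 7. At days 14 and 21 limma called 0, with 0 at an unadjusted p under 0.05. At that threshold 5083 and 2898 of the 14630 genes tested differed in either direction. Of all genes, 19.8%, 14.4%, 11.3% and 1.69% were called lower at days 3, 7, 14 and 21. Of 38 nuclear subunits of complexes II to V, 36, 34, 13 and 0 were called lower at the 4 time points in order, with a median of -1.14 at the first. The 2 not called at day 3 were the ATP synthase genes Atp5g2 (-0.42) and Atp5k (-0.85). No difference between these lists and the Nduf subunits was tested.

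Assembly factors of complex I with other symbols formed a second group of 10 genes. Of these, 5, 6, 5 and 0 were called lower at the 4 time points in order, with a median of -0.52 at the first. Of all genes, 19.8%, 14.4%, 11.3% and 1.69% were called lower in the same order. Ecsit, which works with Ndufaf1, differed by -1.32 at day 3, Dmac2 by -1.10, Tmem70 by -0.88, Tmem126b by -0.85 and Tmem186 by -0.60. Foxred1 (-0.14), Dmac1 (-0.16) and Nubpl (-0.10), an iron-sulfur delivery protein, were not called at day 3. Nubpl was called lower at day 14 (-0.59). Timmdc1 (-0.36) and Acad9 (-0.44) were not called at day 3 either.

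Markers of the cells in the muscle moved at the same times, and in whole muscle fewer fibres and less RNA per fibre cannot be told apart. With the deposited scaling, 19.8%, 14.4%, 11.3% and 1.69% of all genes were called lower at the 4 time points in order. Of 10 fast-fibre genes, 8, 5, 1 and 0 were called lower in the same order, with a median of -1.32 at the first. Their summed level was 87828 to 104490 FPKM without injury and 22543 to 66020 FPKM in the muscles of day 3. In the later groups it was 28396 to 104160, 46724 to 102750 and 76481 to 110470 FPKM. Of the 7 macrophage and leukocyte genes 7, 6, 2 and 0 were called higher in the same order, against 23.4%, 15%, 9.02% and 1.74% of all genes. Of 6 fibroblast genes 5 were called higher at days 3, 7 and 14 and 2 at day 21, with sums of 46.1 to 118.0 FPKM without injury and 425.5 to 862.9 at day 3. Of 5 slow-fibre genes 3, 2, 2 and 0 were called higher in the same order, at day 3 the troponin genes Tnnt1, Tnni1 and Tnnc1. The slow myosin light chain gene Myl2 differed by -0.81 at day 3 and was not called, and the slow myosin gene Myh7 was at a mean of 0.187 FPKM without injury and at 0 in 2 samples. Replicate 4 of day 3, the lowest in subunit level, had the lowest fast-fibre sum (22543 FPKM) and the highest macrophage sum (2144 FPKM) of its group. The part of these cells in the decrease of the Nduf genes was not tested.

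Of 5 endothelial genes 3, 2, 1 and 1 were called lower at the 4 time points in order, and of 5 pericyte genes 3, 2, 1 and 0. The shares of all genes called lower were 19.8%, 14.4%, 11.3% and 1.69%. Of 4 adipocyte genes 3 were tested, and 3 were called higher at day 7 and 0 at the other days. The shares of all genes called higher were 23.4%, 15%, 9.02% and 1.74% at the 4 time points in order. The adipocyte gene Lep was at 0 in 14 samples. The parts of these cells in the Nduf levels were not tested either.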

How the data were processed

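RNA from 27 tibialis anterior muscles in 5 groups was analysed. The authors aligned reads with HISAT2 (version 2.0.5), counted them with featureCounts (version 1.5.0-p3), per the submitters' processing notes, and deposited FPKM per gene. FPKM times gene length gave whole reads for 100% of values (within 0.05 reads), from which totals per sample were taken. Coordinates are those of the deposited table, and 98.3% of its genes had the same coordinates in GENCODE M21 (GRCm38).

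Genes with at least 0.5 FPKM in at least 5 samples were tested on log2(FPKM + 1) with limma (version 3.58.1, R 4.3.3), with all samples in 1 fit, a mean per group and a variance trend. P-values were two-sided and adjusted by the Benjamini-Hochberg method over all genes of a comparison, and calls were made at 0.05. Fold changes on this scale understate those of low genes. The within-muscle difference of Ndufa4l2 and Ndufa4 was tested by exact permutation. The fit was also tested on simulated data. Alternatives were another pseudocount (0.1), no filter or a filter at 1 FPKM, quantile normalization, a common sum per sample, own read totals, limma-voom on recovered reads, fits of only the compared groups, sample weights, replicate blocks and leaving out libraries. Tables and plots used Python 3.11.15, pandas 2.3.3, numpy 2.4.6, scipy 1.17.1 and matplotlib 3.10.9.

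The genes and lists were chosen with earlier results of these data known. Named with values are the core subunits, all Ndufaf genes, Ndufa4, Ndufa4l2, Ndufa12, Ndufab1, the 5 largest and 5 smallest decreases at day 3, the 5 largest at day 21, and any gene called higher at any time or lower at day 21. The values of 1 gene are not reported here, though it is included in all counts and medians.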

Additional observations from a re-analysis of the deposited data

Results flagged for a closer look

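In 7 of 230 pairs of gene and group (3.04%) 1 muscle lay far from the others by Dixon's criterion, which chance alone does in about 1 in 20 groups. Without injury these were replicate 1 for Ndufa9 (236.0 FPKM), Ndufb6 (330.3 FPKM) and Ndufaf3 (23.4 FPKM), and replicate 5 for Ndufaf4 (18.6 FPKM). At day 7 replicate 6 was highest for Ndufb2 (16.3 FPKM), and at day 21 replicate 5 was highest for Ndufa8 (492.9 FPKM) and replicate 3 for Ndufv1 (207.3 FPKM).

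The difference from no injury was higher at day 21 than at day 3 in a direct test by limma for 32 subunit genes and 2 assembly factor genes. Of all genes, 9.23% were called higher in this test. With own totals 9 and 0 were called, beside 2.08% of all genes, and with a common sum 4 and 0, beside 1.1%.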

How the results depend on the processing

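The subunit counts at days 3, 7 and 14 became 9, 8 and 0 with a common sum per sample and 20, 15 and 2 with own totals, and the assembly factor counts 0, 0 and 0, and 1, 2 and 0. The shares of all genes called lower were 2.13%, 1.38% and 0.701%, and 4.14%, 2.85% and 1.91%. At day 14 the subunits called were 5 without the filter, 3 with quantile normalization and 16 with sample weights, and the assembly factors 1, 1 and 5. In these settings 3.99%, 8.91% and 15.7% of all genes were called lower. At day 7, 3 assembly factors were called in the fit of the compared groups and 3 without replicate 5 of days 3 and 7. At day 21 the fit of the compared groups called 3 subunits and 1 assembly factor, and sample weights 1 assembly factor. The shares of all genes called lower were 4.92% and 8.71%. For day 21 against day 3 the subunits called were 15 without the filter, 4 with a common sum and 9 with own totals, and the assembly factors 0 with a common sum, 0 with own totals and 5 with weights. The shares of all genes called higher were 2.98% without the filter, 1.1% with a common sum, 2.08% with own totals and 19.7% with weights. The shift between the paralogs was 0.98 at day 3 and 0.62 at day 7 without replicate 5 of both days. The cause was not tested.

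Leaving out 1 library gave 31 to 37, 21 to 38, 3 to 13 and 0 to 0 subunits at days 3, 7, 14 and 21, and 5 to 6, 3 to 7, 1 to 4 and 0 to 0 assembly factors. For day 21 against day 3 it gave 6 to 34 and 0 to 3. Shares of all genes called in these fits are not given here, so these ranges cannot be read against them. The paralog shift ran from 0.82 to 1.24, 0.59 to 0.85, 0.36 to 0.58 and 0.24 to 0.44 at the 4 days.

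Signs turned with a common sum for the assembly factor medians (0.073 at day 3, 0.028 at day 7). With a common sum and own totals, in this order, signs also turned for single genes. Ndufa4l2 had 0.58 and 0.43 at day 3, 0.24 and 0.076 at day 7, 0.046 (common sum alone) at day 14, 0.14 and 0.14 at day 21. Ndufa5 had 0.066 and 0.067 at day 21. Ndufaf1 had 0.069 (common sum alone) at day 14. Ndufaf2 had 0.59 and 0.46 at day 3, 0.39 and 0.24 at day 7, 0.11 and 0.050 at day 14. Ndufaf3 had 0.29 and 0.14 at day 3, 0.25 and 0.083 at day 7, 0.18 and 0.11 at day 14, 0.066 and 0.065 at day 21. Ndufaf7 had 0.21 and 0.071 at day 3, 0.27 and 0.11 at day 7, 0.060 (common sum alone) at day 14. Ndufaf8 had 0.38 and 0.22 at day 3, 0.21 and 0.038 at day 7, 0.062 and 0.062 at day 21. With quantile normalization day 21 gave 0.083 for Ndufa4l2, 0.067 for Ndufa5, 0.023 for Ndufaf8. Without 1 library the day 21 difference turned to 0.054 for Ndufa4l2 (without uninjured replicate 1), 0.0013 for Ndufa4l2 (without uninjured replicate 5), 0.0024 for Ndufa4l2 (without day 21 replicate 2), 0.042 for Ndufa5 (without uninjured replicate 3), -0.0077 for Ndufaf2 (without uninjured replicate 4), -0.060 for Ndufaf2 (without uninjured replicate 5), 0.0044 for Ndufaf3 (without uninjured replicate 1). Over single libraries left out, these day 21 differences ran from -0.12 to 0.054 for Ndufa4l2, -0.23 to 0.042 for Ndufa5, -0.060 to 0.076 for Ndufaf2 and -0.20 to 0.0044 for Ndufaf3. Over the single genes and all alternatives, 3370 values kept direction and call, 67 gained a call, 106 lost one and 45 changed sign.

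Same-numbered muscles did not deviate together on average (correlations from -0.52 to 0.57, mean 0.022, over 0.1 in 15 of 51 pairs), nor did those sharing a letter (mean 0.030, 15 of 49). Such means cannot exclude that some of these samples share an animal or a batch, and the block fits moved the counts. With the replicate number as a block 38 subunits and 7 assembly factors were called at day 7 (17% of all genes), and 18 and 5 at day 14 (14.0%). With the letter as a block 36 and 7 were called at day 7, 15 subunits at day 14, 1 subunit and 1 assembly factor at day 21, and 9 and 0 for day 21 against day 3. Of all genes, 16.8%, 13.8% and 4.61% were called lower at days 7, 14 and 21, and 6.28% higher for day 21 against day 3.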
